A study of Rattus norvegicus with 63 samples.

Results

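The miR-99, miR-100 and miR-125 families were followed in rat liver after short-term dosing with 15 compounds. The 5 members, rno-miR-99a, rno-miR-99b, rno-miR-100, rno-miR-125a-5p and rno-miR-125b-5p, were chosen by their names on the array, with earlier results from the same arrays already known, out of 350 miRNAs on the array. All 5 were among the 162 miRNAs detected on at least 1 array, and these 162 were tested. For this reason the calls below describe the members and are read against the share of all tested miRNAs called in the same comparison.

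The study dosed young adult male Wistar Hanover rats by gavage and asked whether early liver profiles separate carcinogens from other compounds. Each group had 3 rats, and the treated rats were picked from a larger dose group for visible tissue changes per the study's methods. Each rat was hybridized to its own 1-colour array, 63 in all. The non-genotoxic carcinogens (NGC) were phenobarbital (PB, 14 days, dose not given in the labels), piperonyl butoxide (PBO, 1200 mg/kg per day, 3 days), dehydroepiandrosterone (DHEA, 600, 14 days), acetamide (AA, 3000, 14 days), methapyrilene (MPy, 60, 7 days), methyl carbamate (Mcarb, 400, 14 days), diethylstilbestrol (DES, 10, 3 days) and ethionine (ETH, 200, 14 days). The genotoxic carcinogens (GC) were C.I. Direct Black (CIDB, 146, 7 days) and dimethylnitrosamine (DMN, 4, 7 days). The non-carcinogens (NC) were cefuroxime (CFX, 250, 14 days) and nifedipine (Nif, 3, 14 days). Cyproterone acetate (CPA, 100, 14 days), thioacetamide (TAA, 19.2, 7 days) and Wy-14643 (Wy, 60, 3 days) were left undefined by the study. Controls received methylcellulose (MC sets 1, 2, 5 and 6, all 14 days) or corn oil (CO set 3, 7 days, and CO set 4, 14 days). By the labels, the MPy, TAA, Wy, DES and PBO rats were thus dosed for fewer days than their controls, while the study's methods describe controls matched in time. Which is right was not settled here, and if the labels are, duration and compound cannot be told apart in these 5 compounds. No group was a genetic model.

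miRNAs are short RNAs that guide a silencing complex to messenger RNAs, and they choose their targets mainly through the seed, bases 2 to 8 of the mature strand. The miR-99 and miR-100 family is known for lowering mTOR and IGF1R, regulators of growth and metabolism. The miR-125 family is the mammalian relative of lin-4, the founding miRNA that times development in worms, and it has been studied for its effects on cell proliferation and blood cell formation. In mammals the members lie in clusters with let-7 miRNAs, so that one transcript can carry a miR-99 or miR-100, a let-7 and a miR-125.

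The mature sequences are shown because they divide the members into 2 seed groups, and the pair that moved in these livers, miR-99a and miR-125b-5p, comes from different families. Both members of this pair have a locus on chromosome 11, as given below. Mature sequences of 4 of the 5 members come from RefSeq on the GRCr8 build, 5′ to 3′, with the seed in capitals.
rno-miR-99b: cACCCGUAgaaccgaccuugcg
rno-miR-100: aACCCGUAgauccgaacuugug
rno-miR-125a-5p: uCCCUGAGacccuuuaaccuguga
rno-miR-125b-5p: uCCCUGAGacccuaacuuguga
miR-99b and miR-100 carried the seed ACCCGUA and differed at 4 of their 22 positions. miR-125a-5p and miR-125b-5p carried the seed CCCUGAG and shared their first 13 and last 5 bases. Whether the probes of one member also bind another was not tested.

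The strands place the members on 3 chromosomes. miR-99b (chr1:67350070-67350091, plus strand) and miR-125a-5p (chr1:67350689-67350712, plus strand) flank let-7e within 696 bases, counted over the precursors. miR-100 (chr8:50798307-50798328, plus strand) lies in a cluster with let-7a-2 and Mir125b1 that spans 51.8 kb. The precursor of miR-99a (chr11:29687392-29687472, plus strand) lies beside let-7c, and the pair spans 814 bases. miR-125b-5p (chr11:29732588-29732609, plus strand) is listed under Mir125b2 and follows miR-99a and let-7c on the same strand. This is the order of the mammalian clusters described above, and whether 1 transcript carries all 3 in these livers was not tested. The mature sequence of miR-125b-5p also occurs in the Mir125b1 precursor on chromosome 8, so its array signal cannot be split between the 2 loci.

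The arrays were scanned on 3 days, with 30, 28 and 5 arrays, and median spot brightness ran from 193.5 to 243.5 units on day 1, from 140 to 153.5 on day 2 and from 75 to 78 on day 3. MC sets 2 and 5 were scanned on day 2, MC set 6 and both CO sets on day 1, and MC set 1 on days 2 and 3. The arrays lay on 9 slides. As labelled, only the PBO, Mcarb, CIDB, CFX and CPA rats had a slide in common with their controls. In the other compounds slide and compound cannot be told apart within the comparison. No spot was saturated. The hepatocyte miRNAs miR-122, miR-192 and miR-194 were well above background on 63 of 63 arrays.

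The identity of 15 arrays is in doubt. When each column of the authors' value table was set against the scanner arrays, 48 columns followed the array of the same label and 15 followed another, with correlations across 71 miRNAs of at least 0.797 to the array followed. The columns of DHEA followed the DES arrays and the reverse, and the columns of MC sets 1, 5 and 2 followed the arrays of sets 5, 2 and 1. Which of the labels is right cannot be told from these files. The comparisons of PB, CIDB, DMN and CPA do not touch these arrays. For the other 11 compounds both assignments are given where they change a result for a member or a let-7 neighbour. Marker calls are read as labelled unless stated.

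Values are log2 brightness after quantile normalization, without background subtraction. They therefore include the array background, near 7.4 for miRNAs without signal, and fold changes on this scale are smaller than changes in RNA. A miRNA was called changed at an adjusted p under 0.05 from limma with Benjamini-Hochberg adjustment over the 162 miRNAs.

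miR-99a and miR-125b-5p were measured well above background on all 63 arrays and held 14 of the 16 calls made on this scale. miR-99a was called lower in 8 of 15 compounds and miR-125b-5p in 6, and neither was called higher in any. These counts hold for arrays as labelled and for this scale. In DHEA, AA, MPy and Wy both were called lower. Among all 162 tested miRNAs 2, miR-23b and miR-99a, were called lower in 8 compounds, 1, miR-125b-5p, in 6, and 88 in none. The remaining members stayed close to background on this scale: miR-100 was called lower in 1 compound, miR-125a-5p higher in 1 and miR-99b in 0 at the adjusted threshold. With unadjusted p-values under 0.05, limma marked miR-99b in DMN (lower) and CIDB (higher). Several compounds share control rats, so the counts across compounds are not independent: MC set 1 serves 6 compounds, MC set 5 serves 3, and MC set 2 and CO set 3 serve 2 each.

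**Figure D1:**
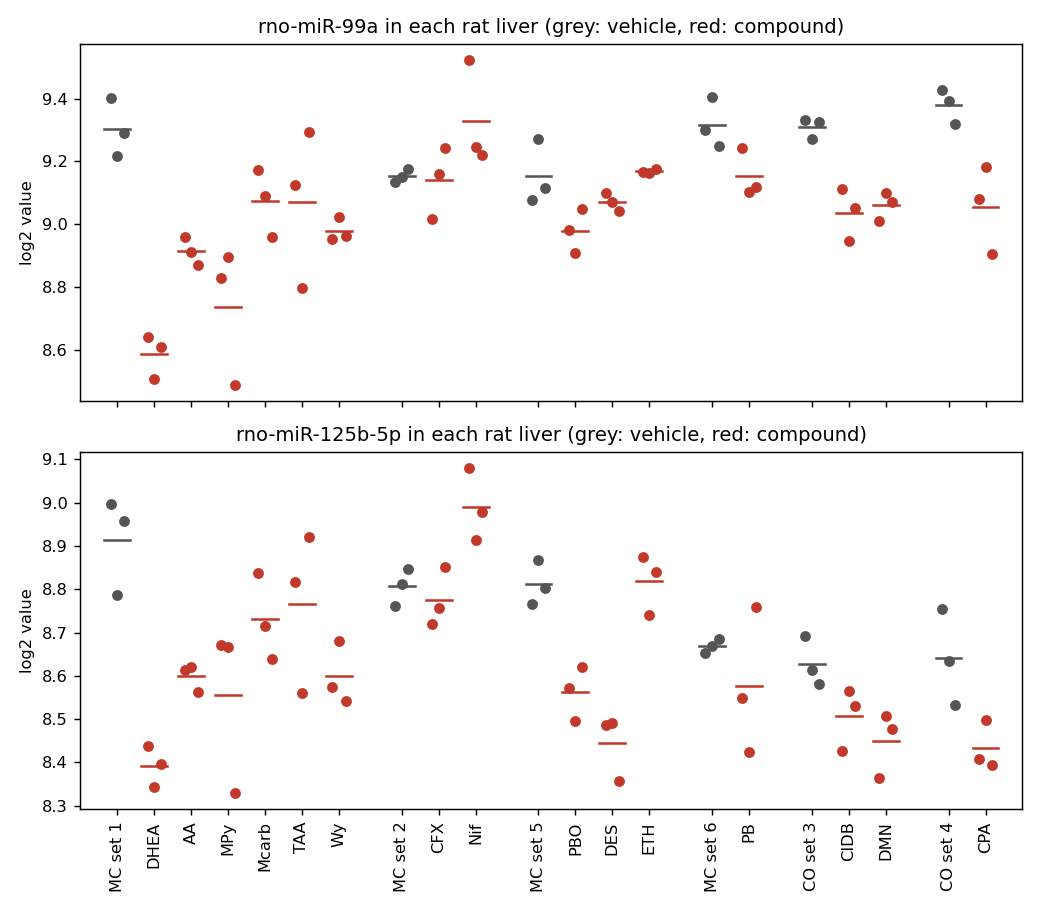
Log2 values (vertical axis) of miR-99a and miR-125b-5p in each rat, with groups along the horizontal axis beside the vehicle set of their label, points for rats and bars for group means. The 3 rats labelled DHEA had the lowest group mean of both miRNAs, 8.59 for miR-99a and 8.39 for miR-125b-5p, and rat 1 of Nif had the highest value of both.

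In the 18 vehicle rats miR-99a ran from 9.08 to 9.43, with a median of 9.28. The MC set 1 rats had log2 values of 9.40, 9.22 and 9.29. Against these, the rats labelled DHEA had 8.64, 8.50 and 8.61, the MPy rats 8.83, 8.90 and 8.49, and the AA rats 8.96, 8.91 and 8.87. All 9 treated rats lay below all 3 controls. The share of all 162 miRNAs that separated in this way is not given, so such separation, here and below, only describes the members. The log2 fold change was -0.72 in DHEA (SE 0.09, adjusted p = 8.5e-09), -0.57 in MPy (SE 0.09, adjusted p = 4.3e-06) and -0.39 in AA (SE 0.09, adjusted p = 0.0016). In each of the 3 comparisons as labelled, miR-99a had the most negative fold change of all 162 miRNAs. This rank depends on brightness: dim miRNAs cannot fall far on this scale, and 71 of the 162 were detected on all arrays. Of the miRNAs tested, 8.64% were called lower in DHEA, 10.5% in MPy and 5.56% in AA.

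The Wy rats, given a PPAR-alpha agonist, had miR-99a values of 8.95, 9.02 and 8.96, below all MC set 1 rats. The fold change was -0.33 (SE 0.09, adjusted p = 0.0041), against 14.2% of miRNAs called lower. The TAA rats spread from 8.80 through 9.12 to 9.30 and overlapped the controls. The TAA fold change of -0.23 (adjusted p = 0.047, background 11.7%) rested on TAA rat 2: without this rat it was -0.09 (adjusted p = 0.49), and the call also ended without TAA rat 1 or MC set 1 rats 4 or 6. The Mcarb rats had 9.17, 9.09 and 8.96 and lay below all controls, but the fold change of -0.23 was not called (adjusted p = 0.14, background 0.617%).

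In the corn oil comparisons, which the doubtful arrays do not touch, the CO set 4 rats had miR-99a values of 9.43, 9.39 and 9.32 and the CPA rats 9.08, 9.18 and 8.90. The groups did not overlap, and the fold change was -0.33 (SE 0.09, adjusted p = 0.013) where 1.85% of miRNAs were called lower. The call ended without CPA rat 3 (-0.25, adjusted p = 0.11) and without CO set 4 rats 1 or 2 (adjusted p = 0.061 and 0.065). The CO set 3 rats had 9.33, 9.27 and 9.33, against 9.11, 8.95 and 9.05 in CIDB and 9.01, 9.10 and 9.07 in DMN. Both groups lay below all controls, with fold changes of -0.27 in CIDB (adjusted p = 0.019, background 7.41%) and -0.25 in DMN (adjusted p = 0.033, background 9.88%). These calls were close to the threshold. The CIDB call ended without CIDB rat 2 (adjusted p = 0.10) or without CO set 3 rats 4 or 6 (0.051 and 0.054), and the DMN call without any DMN rat or either of the same controls (adjusted p from 0.054 to 0.10).

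miR-99a was not called in the other compounds. The log2 fold change was -0.18 in PBO (adjusted p = 0.18) and -0.16 in PB (adjusted p = 0.43, background 0.617%), and in both all treated rats lay below their controls. It was -0.08 in DES as labelled, -0.01 in CFX and 0.01 in ETH. The Nif rats had 9.52, 9.24 and 9.22, above the rats labelled MC set 2 at 9.13, 9.15 and 9.18, with a fold change of 0.18 that missed the threshold (adjusted p = 0.38). Under the assignment that the value table follows, the fold change was 0.02 (adjusted p = 0.97) and the groups overlapped. By limma, 0% of miRNAs were called lower in CFX or in Nif, while at an unadjusted p under 0.05 there were 0 lower in CFX and 13 in Nif.

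miR-125b-5p ran from 8.53 to 8.996 in the 18 vehicle rats, with a median of 8.76. The MC set 1 rats had 8.996, 8.79 and 8.96. The rats labelled DHEA had 8.44, 8.34 and 8.40, the AA rats 8.61, 8.62 and 8.56, and the Wy rats 8.57, 8.68 and 8.54. The MPy rats had 8.67, 8.67 and 8.33, so that MPy rat 3 was the lowest of its group for both miRNAs. All of these 12 rats lay below all MC set 1 controls. The fold changes were -0.52 in DHEA (SE 0.08, adjusted p = 1.1e-06), -0.36 in MPy (adjusted p = 0.00053), -0.31 in AA (adjusted p = 0.0043) and -0.31 in Wy (adjusted p = 0.0024).

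The MC set 5 rats had miR-125b-5p values of 8.76, 8.87 and 8.80. The rats labelled DES had 8.49, 8.49 and 8.36, and the PBO rats 8.57, 8.50 and 8.62, all below these controls. The fold change was -0.37 in DES (SE 0.08, adjusted p = 0.00038), where 16% of miRNAs were called lower, and -0.25 in PBO (SE 0.08, adjusted p = 0.027), where 3.7% were. The PBO call ended without PBO rats 1 or 2 and without MC set 5 rats 8 or 9 (adjusted p from 0.052 to 0.16). ETH, given with the same controls, had a fold change of 0.01, while 9.88% of miRNAs were called lower there.

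In the corn oil comparisons miR-125b-5p was lower in every treated rat than in every control in CPA (-0.21), DMN (-0.18) and CIDB (-0.12), but none of the 3 passed the test (adjusted p = 0.11, 0.088 and 0.25). Nor did Mcarb (-0.18, adjusted p = 0.14), TAA (-0.15), PB (-0.09) or CFX (-0.03). In Nif as labelled all 3 rats lay above their controls, at 9.08, 8.91 and 8.98 against 8.76, 8.81 and 8.85, with an uncalled fold change of 0.18 (adjusted p = 0.31). With the other assignment it was 0.08 and the groups overlapped.

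**Figure D2:**
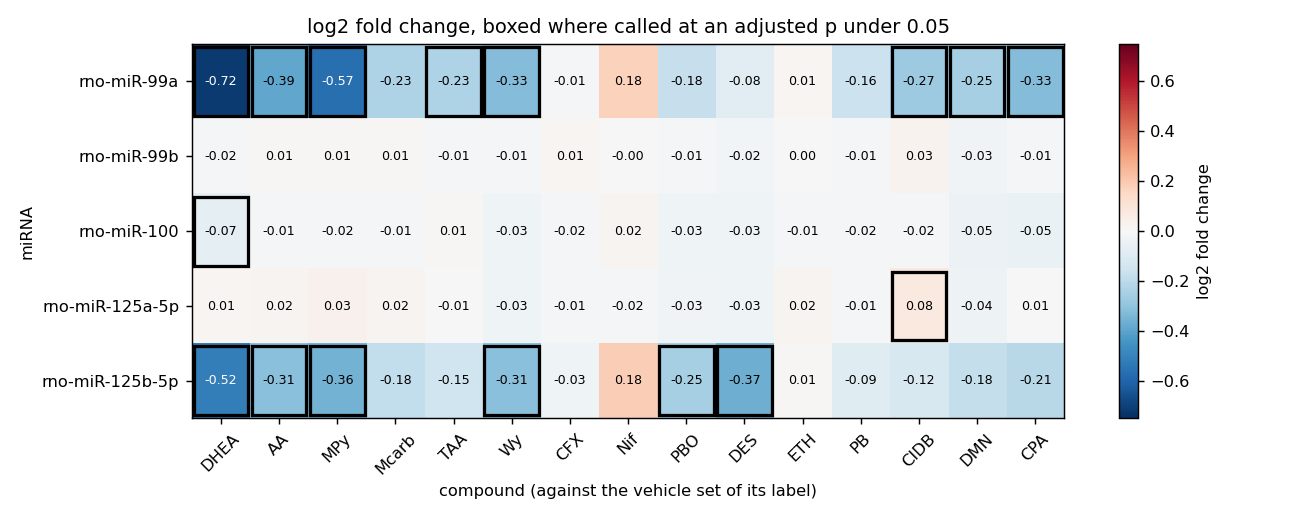
Log2 fold changes of the 5 members (rows) in 15 compounds (columns) against the vehicle set of their label, blue for lower and red for higher, with boxes around called values. miR-99a and miR-125b-5p hold 14 of the 16 boxes, and miR-99b, miR-100 and miR-125a-5p stay between -0.07 and 0.08.

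Each member was read by 2 probes with 20 spots in all, and both probes of miR-99a and of miR-125b-5p had the same sign in every called comparison. In DHEA the probes of miR-99a gave -0.66 and -0.78. Those of miR-125b-5p gave -0.26 and -0.78, and the probe with the smaller change was well above background on 39 arrays. For miR-100 and miR-125a-5p, 1 probe each was well above background on 0 arrays. With this probe first, miR-100 gave -0.0053 and -0.13 in DHEA as labelled, and miR-125a-5p gave 0.05 and 0.10 in CIDB. Their calls thus rest on 1 measured probe each. On the processed signal of the scanner software, which has background subtracted, scaled by the 75th percentile over miRNAs detected on all arrays, the DHEA fold change was -1.02 for miR-99a and -0.96 for miR-125b-5p. On that scale MPy was at -0.67 and -0.47, AA at -0.50 and -0.40, and DES at -0.23 and -0.70, each time with miR-99a given first. On that scale 5 of the 16 calls were lost: miR-99a in CIDB (-0.21, adjusted p = 0.39), DMN (-0.19, adjusted p = 0.65) and TAA (-0.15, adjusted p = 0.73), miR-125b-5p in AA (adjusted p = 0.062) and miR-100 in DHEA. In addition the uncalled values of miR-125b-5p in CIDB and TAA changed sign there, to 0.05 and 0.01.

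The doubt about the arrays bore most on DHEA and DES. With the arrays as the value table follows them, the miR-99a fold change was -0.08 in DHEA (adjusted p = 0.46) and -0.57 in DES (adjusted p = 1.4e-06), so that the call passed from one compound to the other. miR-125b-5p was called lower in both compounds under either assignment, at -0.37 in DHEA and -0.41 in DES. Under this assignment 16% of miRNAs were called lower in DHEA and 8.64% in DES. The MC set 1 label then carried controls with lower values of both miRNAs. MPy kept both calls, at -0.42 for miR-99a (adjusted p = 0.00094) and -0.26 for miR-125b-5p (adjusted p = 0.017). The share of miRNAs called lower in MPy was then 5.56%. AA lost both calls (-0.24 and -0.21, adjusted p = 0.13 for each), as did Wy (-0.18 and -0.21, adjusted p = 0.16 and 0.056), and TAA lost that of miR-99a (-0.08, adjusted p = 0.57). In Mcarb the values became -0.08 for both miRNAs and in CFX -0.16 and -0.14, none called, and the miR-99a groups of Mcarb then overlapped. Under this assignment limma called 0% of miRNAs lower in AA, with 9 at an unadjusted p under 0.05, and 4.94% in Wy and 2.47% in TAA.

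**Figure D3:**
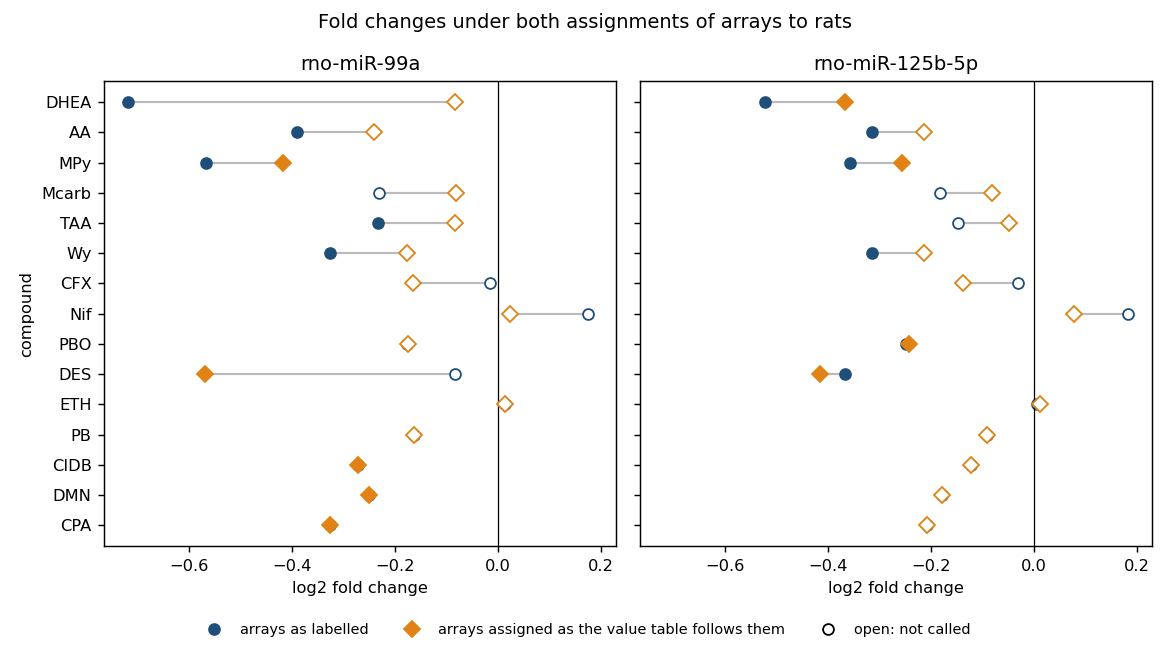
Log2 fold changes (horizontal axis) of miR-99a and miR-125b-5p by compound, with circles for arrays as labelled, diamonds for arrays assigned as the value table follows them, and open symbols for values not called. The miR-99a values of DHEA and DES trade places, from -0.72 and -0.08 to -0.08 and -0.57, while PB, CIDB, DMN and CPA do not move.

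Scan day differed between some compounds and their controls, and the values were therefore also set against the vehicle rats of the same day. On day 2, the rats labelled DHEA lay 0.59 below the mean of 8 methylcellulose rats for miR-99a and the MPy rats 0.44 below. Here no treated rat overlapped the vehicle rats. On day 1, where MC set 6 is the only methylcellulose set, Wy was 0.34 below and the rats labelled DES 0.25 below for miR-99a. For miR-125b-5p the day 2 differences of DHEA and MPy were -0.43 and -0.27, and on day 1 DES was at -0.22. In contrast Wy was only at -0.07 on day 1 and overlapped the vehicle rats, and the 2 AA rats of that day were at -0.05. With scan day as a block, miR-125b-5p was no longer called in Wy (-0.25, adjusted p = 0.083) or DES (-0.33, adjusted p = 0.067).

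The vehicle rats gave a measure of how far the members moved without a compound. Between MC set 6 and MC set 1, miR-125b-5p was 0.24 lower in set 6 (adjusted p = 0.017), where 20.4% of all miRNAs were called in either direction. Against sets 2 and 5 the differences were -0.14 and -0.14 (adjusted p = 0.23 and 0.22), with 6.79% and 9.26% called. With scan day as a block the difference from set 1 was -0.18 (adjusted p = 0.45). With the arrays as in the value table, the called difference was that between sets 6 and 2. The difference of 0.24 between vehicle sets is close in size to the change called in PBO. For miR-99a the same 3 differences ran from 0.01 to 0.16 and none was called. None of the 3 dim members was called between these sets.

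The ratio of miR-99a to miR-125b-5p depended on the scale and on the array assignment. The change in their ratio within an array, with its 95% interval over 21 groups, was -0.20 in DHEA as labelled (-0.32 to -0.07), -0.21 in MPy (-0.34 to -0.09) and -0.15 in CIDB (-0.28 to -0.03), toward less miR-99a. In DES as labelled it was 0.28 (0.16 to 0.41), toward less miR-125b-5p. In the other 11 compounds the interval included 0. On the background-subtracted signal the interval also included 0 in DHEA (-0.07, from -0.30 to 0.17) and MPy (-0.20, from -0.44 to 0.03). There it excluded 0 in CIDB (-0.25, from -0.49 to -0.02), CPA (-0.27, from -0.51 to -0.04) and DES as labelled (0.47, from 0.24 to 0.71). With the other assignment the DHEA and DES values turned, to 0.28 (0.16 to 0.41) and -0.15 (-0.28 to -0.03), and on both changes together DES was at -0.0056. CIDB is not touched by the assignment and kept its direction on both scales. The ratio compares unequal changes of 2 miRNAs and does not say that either stood still.

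Within groups, rats with more miR-99a also had more miR-125b-5p. Over the deviations of 63 arrays from their group means the correlation was 0.73, and it was 0.63 without TAA rat 2 and MPy rat 3, the 2 arrays farthest out. Over raw values it was 0.62. Against 103 other miRNAs, those detected on most arrays, miR-100, miR-125b-5p and miR-195 were most like miR-99a over the 63 arrays (r = 0.66, 0.62 and 0.57). For miR-125b-5p they were miR-100, miR-140* and miR-99a (0.72, 0.67 and 0.62). For miR-100 they were miR-125b-5p, miR-99a and miR-140* (0.72, 0.66 and 0.47). These 3 members thus stood among each other's 3 nearest miRNAs, and their correlations within scan days ran from 0.71 to 0.80. miR-125a-5p lay apart, with r of -0.06 to miR-99a and 0.11 to miR-125b-5p, although it shares the seed of the latter. Its nearest were miR-331, miR-21 and miR-150 (0.58, 0.55 and 0.52). Over deviations from group means these 3 were at 0.16, 0.42 and 0.53, and miR-195 was at 0.08 to miR-99a. The correlations among miR-99a, miR-100 and miR-125b-5p then ran from 0.55 to 0.73. miR-125a-5p was well above background on 33 of 63 arrays, which limits its correlations. The arrays share slides, scan days and control rats, so these values describe this set of arrays.

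**Figure D4:**
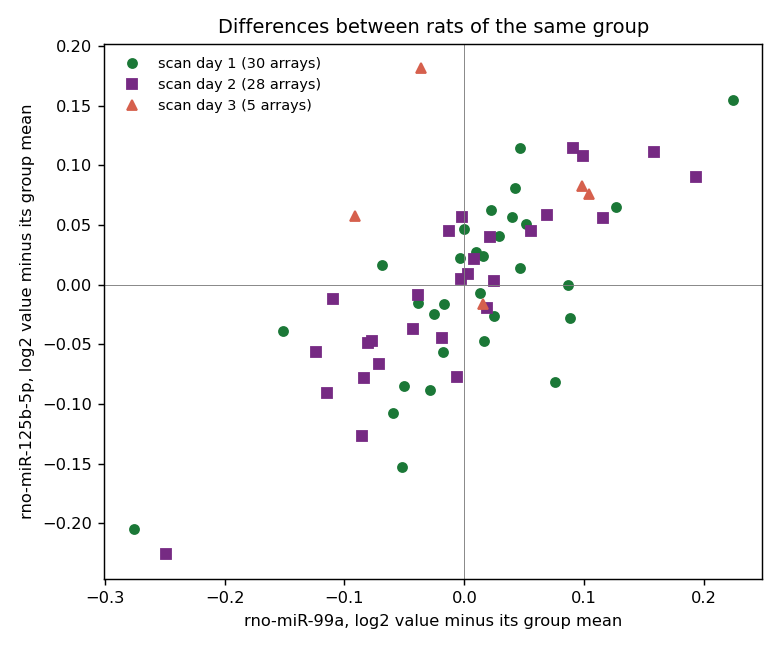
Deviation of each of the 63 arrays from its group mean, in log2 units, for miR-99a (horizontal) and miR-125b-5p (vertical), with symbols by scan day. Most points of days 1 and 2 run along the diagonal, with r = 0.73 over all arrays, while 2 of the 5 arrays of day 3 lie off it.

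miR-100 was detected on 62 arrays and well above background on 38. How often this was so moved with scan day: 12 of 30 arrays on day 1, 21 of 28 on day 2 and 5 of 5 on day 3. The rats labelled DHEA had log2 values of 7.52, 7.50 and 7.51, below the MC set 1 rats at 7.59, 7.55 and 7.59, with 1 of 3 and 2 of 3 arrays well above background. The fold change of -0.07 was called (SE 0.02, adjusted p = 0.0099) and ended without DHEA rat 2 or MC set 1 rat 4 (adjusted p = 0.052 and 0.061). With the arrays as in the value table it was -0.03 in DHEA (adjusted p = 0.22) and -0.08 in DES (adjusted p = 0.0023). On the background-subtracted signal the DHEA value of -0.17 was not called (adjusted p = 0.12). There miR-100 was called lower in DES (-0.23, adjusted p = 0.023), where 16.7% of miRNAs were called lower, and higher in TAA (0.23, adjusted p = 0.019), where 21% were called higher. In PBO, miR-100 was not well above background on any of 3 arrays, against 3 of 3 in its controls. This made it at least 1.019-fold lower, but the difference was not called (adjusted p = 0.33). In CPA, with 1 of 3 controls measured, the values of miR-100 were no lower than the dimmest measured miRNA. The 1.035-fold there is thus the observed difference and not a bound (adjusted p = 0.11). In DES and CIDB the bound was under 1 and no fold is given.

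miR-125a-5p was detected on 46 arrays and well above background on 33, which were 7 of 30 on day 1, 21 of 28 on day 2 and 5 of 5 on day 3. It was called in CIDB, and upward. The CIDB rats had log2 values of 7.57, 7.63 and 7.66, each well above background, and the CO set 3 rats 7.56, 7.53 and 7.55, none well above background. CIDB rat 2, the middle value, was scanned on day 3 and the other rats of both groups on day 1. The fold change was 0.08 (SE 0.02, adjusted p = 0.00015), against 13% of miRNAs called higher in CIDB, and the measured ratio was at least 1.01-fold. It was called after leaving out any 1 of the 6 rats. On the background-subtracted signal the same comparison gave 0.33. Its family member miR-125b-5p had -0.12 in the same rats. In PBO the bound was at least 1.005-fold lower and in Wy 1.01-fold lower, neither called (adjusted p = 0.27 and 0.15). In DES the bound was under 1. With the other assignment the PBO value was called, at -0.04 (adjusted p = 0.042), where 10.5% of miRNAs were called lower.

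miR-99b was detected on 3 arrays, 2 of them scanned on day 3, and well above background on 0. Its values lay between 7.40 and 7.49 in all groups, so the arrays give a background level for it and no fold change. Its cluster neighbours let-7e and miR-125a-5p, less than 1 kb away, were detected on 63 and 46 arrays.

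**Figure D5:**
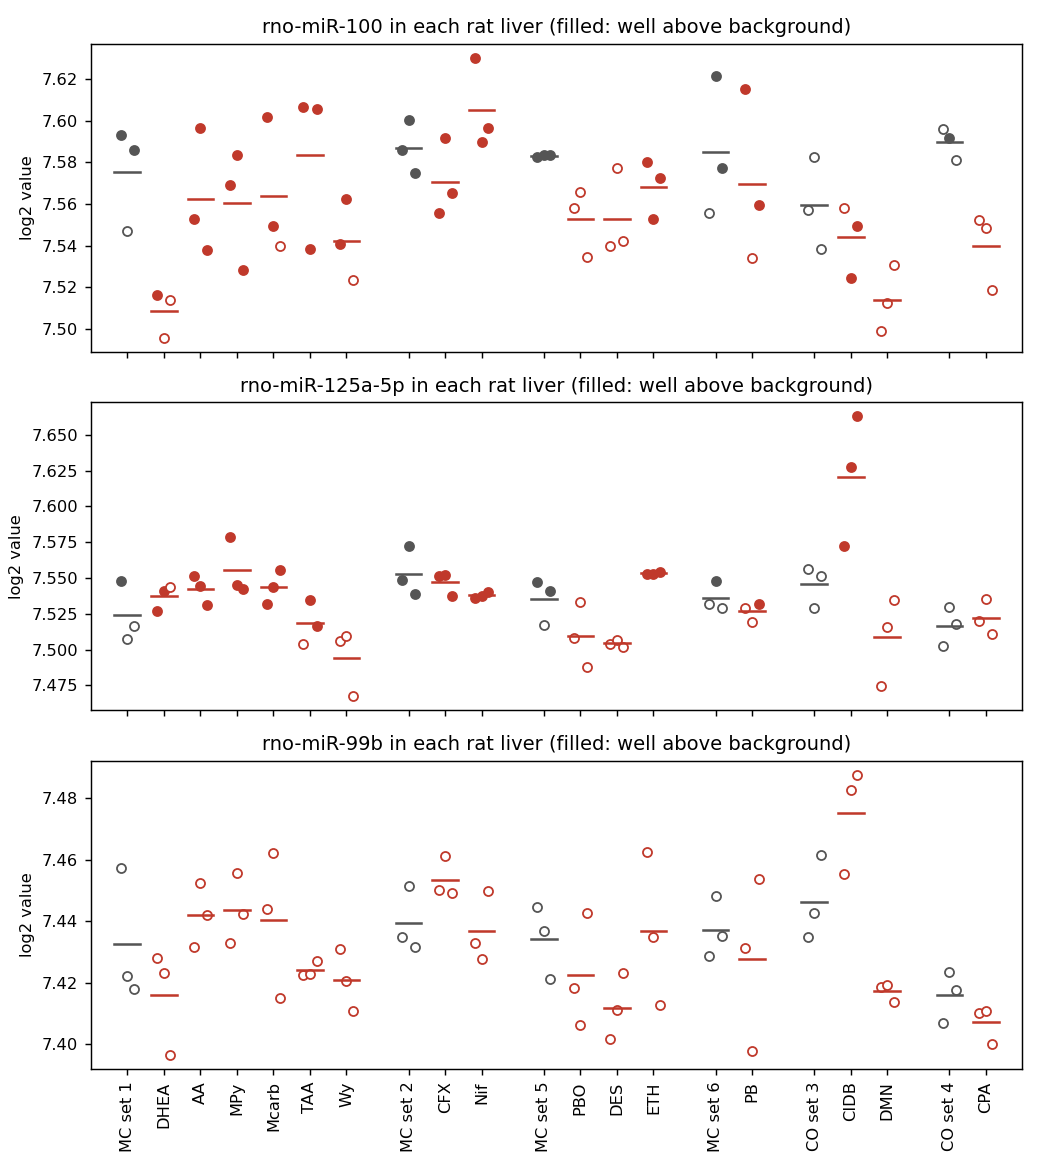
Log2 values (vertical axis) of miR-100, miR-125a-5p and miR-99b in each rat by group, with grey for vehicle, red for compound, filled points for arrays well above background and bars for group means. The 3 filled CIDB points of miR-125a-5p lie above all 3 CO set 3 rats, and miR-99b has no filled point.

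The let-7 miRNAs of the same clusters were called in 2 compounds each. let-7c, the neighbour of miR-99a, was called lower in DHEA as labelled (-0.32, adjusted p = 0.00012) and higher in DES (0.24, adjusted p = 0.0022), where 21% of miRNAs were called higher, and was not called in the other 13 compounds. With the other assignment both turned, to 0.24 in DHEA (adjusted p = 0.0022), where 21% of miRNAs were called higher, and -0.35 in DES (adjusted p = 2.2e-05). The ratio of let-7c to miR-99a was higher with a 95% interval above 0 in 8 of 15 compounds as labelled, lower with an interval below 0 in 1, Nif (-0.25, from -0.45 to -0.04), and had an interval that included 0 in 6, and with the other assignment these counts were 6, 0 and 9. It was changed by 0.69 in MPy (95% interval 0.49 to 0.89), 0.45 in AA (0.25 to 0.65), 0.40 in DHEA (0.20 to 0.60) and 0.40 in Wy (0.20 to 0.60). Where let-7c was not called, as in MPy, AA and Wy, the ratio mostly repeats the change of miR-99a. Ratios of other miRNAs to miR-99a were not taken, so these counts show nothing particular to let-7c. let-7a, which lies with miR-100 but is made from other loci as well, was called higher in DHEA (0.24, background 9.88%) and MPy (0.24, background 8.02%), and with the other assignment in neither (0.11 and 0.18, adjusted p = 0.24 and 0.084). let-7e, the neighbour of miR-99b and miR-125a-5p, was called lower in DMN (-0.18) and Wy (-0.12), of which the Wy call was lost with the other assignment (-0.11, adjusted p = 0.075). Of the other arms, miR-99a* was well above background on 1 array and miR-125a-3p on 2, and miR-99b*, miR-125b* and miR-125b-3p were detected on 0, so no fold is given for them.

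Liver is a mixture of cells, and in bulk tissue fewer cells of a type cannot be told apart from less RNA per cell. Marker miRNAs were therefore read beside the called members. In DHEA as labelled, 1 of 3 hepatocyte markers (miR-192) was called lower, where 8.64% of all miRNAs were. In MPy 1 of 3 (miR-194) was called lower, where 10.5% were. As labelled, no stellate, endothelial, leukocyte or epithelial marker was called in either. With the other assignment, DHEA is the comparison of the DES arrays with the MC set 5 arrays. Its marker calls are then those given below for DES as labelled. In AA, 1 of 4 stellate or smooth muscle markers (miR-143) was called higher, where 8.02% of all miRNAs were. In Wy and TAA the same miRNA was called lower, where 14.2% and 11.7% of all miRNAs were. In CPA no marker of any list was called. In DMN, 3 of 4 stellate or smooth muscle, 1 of 2 endothelial and 1 of 3 hepatocyte markers were called lower, where 9.88% of all miRNAs were. In the same comparison 3 of 4 leukocyte markers were called higher, where 13.6% of all miRNAs were. There the summed log2 level of the stellate list ran from 9.85 to 9.89, against 10.00 to 10.17 in the controls, and that of the leukocyte list from 10.17 to 10.43, against 9.83 to 9.93. In CIDB, where miR-125a-5p was higher, 3 of 5 epithelial markers were called higher, and 2 of 3 hepatocyte and 1 of 4 leukocyte markers lower. Of all miRNAs, 13% were called higher and 7.41% lower there. The summed epithelial list ran from 10.10 to 10.17 against 9.93 to 10.00, and the hepatocyte list from 14.33 to 14.60 against 14.71 to 14.81. In PBO, 3 of 5 epithelial markers were called higher, where 4.94% of all miRNAs were, and 1 of 3 hepatocyte markers lower, where 3.7% were. In DES as labelled, 1 of 5 epithelial and 1 of 3 hepatocyte markers were called higher, where 21% of all miRNAs were. There 2 of 4 leukocyte and 1 of 2 endothelial markers were called lower, where 16% of all miRNAs were. The erythroid markers miR-144 and miR-451 were called in none of the 15 compounds. The stellate marker miR-145 was detected on 0 arrays. For MPy, AA, Wy, TAA, PBO and DES the marker calls with the other assignment are not given. The part of these cell types in the members' changes was not tested.

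The study's class contrasts were read with compounds as replicates. There were 15 such tests, of 5 members in 3 contrasts, and the exact p-values below are not adjusted for their number. The mean log2 fold change of miR-125b-5p was -0.24 ± 0.16 (SD) over the 10 carcinogens and 0.08 over the 2 NC compounds, a difference of -0.31 for C vs. NC. The two-sided exact permutation p over the 66 assignments was 0.030. For NGC vs. NC the difference was -0.34 (exact permutation p = 0.044 over 45 assignments). For miR-99a the differences were -0.36 for C vs. NC (exact permutation p = 0.061) and -0.37 for NGC vs. NC (exact permutation p = 0.089). Over all 162 miRNAs, limma gave adjusted p-values of 0.68 for both in C vs. NC and 0.53 in NGC vs. NC. Both NC compounds share MC set 2, one of the sets in doubt, and both GC compounds share CO set 3. MC sets 1 and 5 each serve several NGC compounds. Fold changes with shared controls are not independent, which the permutation does not take into account, so its p-values are descriptive. With the arrays as in the value table the miR-125b-5p differences were -0.17 for C vs. NC and -0.18 for NGC vs. NC (exact permutation p = 0.15 and 0.18). For NGC vs. GC the differences were -0.03 for miR-99a (exact permutation p = 0.93) and -0.11 for miR-125b-5p (exact permutation p = 0.40), neither of which passed. The smallest p that these contrasts can give is 0.015 for C vs. NC and 0.022 for the other 2. The NGC class was itself uneven, with miR-99a from -0.72 in DHEA to 0.01 in ETH.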

How the data were processed

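The deposited scanner files hold, per the file headers, intensity values that Agilent Feature Extraction 10.7.3.1 read from each spot: mean brightness without normalization or background subtraction, a processed signal with background subtracted, and flags. The authors also deposited normalized log2 values of 135 miRNAs, by their methods RMA without background correction, in which miR-99b is not listed.

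Control spots and the 2.87% of spots with an outlier flag were dropped. Mean brightness was quantile normalized between arrays, averaged per probe, log2 transformed and summarized by median polish in R 4.3.3. A miRNA had to be detected on at least 1 array, which removed 188. limma 3.58.1 was fitted over all 21 groups, and contrasts followed the control set in the labels, with adjustment over 162 miRNAs. Well above background means that the scanner flagged the majority of spots of a probe. Where one side of a comparison had no such array, the fold is a lower bound set by the dimmest measured miRNA per array. Where the member's own value was higher than that, its own value was used. Classes were compared by exact permutation over compounds, which treats them as independent although several share controls. The steps were tested on simulated data. Groups hold 3 rats each, the file headers give 9 slides and 3 scan days, and no other batches are named. The p-values set group differences against the spread between rats of a group on these arrays. Where a group and its controls differ in slide or scan day, the p-values do not separate this from the compound. Arrays have no read depth.

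The members and marker lists were chosen with earlier results of these data known. Named are all 5 members, the let-7 neighbours, other arms, the 3 most similar miRNAs per member, and markers where a result turns on one. Alternatives were the deposited table, scaling by the 75th percentile, normexp (offset 50), other detection filters, the brightest probe, blocks for slide, scan day or replicate number, pooled controls, fits of single comparisons, the other array assignment and leaving out each rat. Combining the array assignment with scan day, pooled controls or the 75th percentile, and all alternatives for the ratios, were chosen after seeing the data.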

Additional observations from a re-analysis of the deposited data

How the results depend on the processing

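Signal over background limited miR-99b, miR-100 and miR-125a-5p, and 3 rats per group limited all calls. Of 16 calls, 16 held under the stricter detection filter, 15 under normexp and with all control rats of the vehicle, 14 with the brightest probe alone, scan day or a random slide block, and 5 with slide as a fixed block. Most slides hold few rats of a comparison, and in most called comparisons treated and control rats shared no slide. There slide and compound cannot be told apart within the comparison. The value table moved the median over all miRNAs by -0.12 to 0.05, and its fold changes are relative to this.

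miR-99a, called lower in 8 compounds, was called in 4 in the value table, in 5 with the 75th percentile of miRNAs detected on all arrays, with only the groups compared, with arrays reassigned after the value table and with this plus scan day, in 3 with this plus the 75th percentile, and in 2 with slide as a fixed block. miR-125b-5p, called in 6, was called in 3 with only the groups compared and with the assignment plus scan day, and in 2 with slide as a fixed block and with the assignment plus the 75th percentile. The count for miR-100, 1, became 0 with slide as a fixed block or only the groups compared, 3 with all control rats of the vehicle under either assignment, and 2 with the assignment plus the 75th percentile. Not called higher on the main scale, miR-100 was called higher in 1 compound (TAA) with the 75th percentile of miRNAs detected on all arrays, and miR-125b-5p in 1 (Nif, 0.72, adjusted p = 0.015) with that of all probes. miR-125a-5p, called lower in 0, was called lower in 1 in the value table, with the assignment and with this plus scan day, and in 2 with all control rats under either assignment. Called higher in 1, it was called higher in 2 with the 75th percentile and in 0 with only the groups compared. miR-99b was called lower in 1 compound with the brightest probe and with all control rats under either assignment. With all control rats it was also called higher in 1, CIDB (0.04, adjusted p = 0.0016), and as labelled its lower call was in DES (-0.02, adjusted p = 0.047), all at background level. Leaving out 1 rat gave counts of 5 to 8 for miR-99a, 5 to 6 for miR-125b-5p, 0 to 1 for miR-100, 0 to 1 lower and 1 higher for miR-125a-5p, and 0 lower and 0 to 1 higher (without CIDB rat 1) for miR-99b, and 0 higher for miR-99a, miR-100 and miR-125b-5p. Among values called under either setting, the only sign change of a member was that of miR-125a-5p in DHEA, uncalled at 0.01 and called at -0.033 with the assignment plus all control rats. The ratio of miR-99a to miR-125b-5p turned in DHEA from -0.20 to 0.28 with the assignment and to 0.47 with this plus the 75th percentile, and in DES from 0.28 to -0.15 and -0.0056. The cause was not tested.

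For C vs. NC, the miR-125b-5p difference was -0.40 in the value table, -0.48 with the 75th percentile of miRNAs detected on all arrays, -0.31 with slide as a fixed block and -0.17 with the array assignment, with exact permutation p-values from 0.12 to 0.26. For NGC vs. NC it was -0.50, -0.55, -0.35 and -0.18 in the same order and -0.45 with the brightest probe (exact permutation p from 0.067 to 0.20). The miR-99a differences passed with the 75th percentile over all probes, at -1.02 and -1.05 (exact permutation p = 0.015 and 0.022, the smallest these contrasts can give).

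With replicate number as a block for PB and CPA, the miR-99a value in CPA stayed at -0.33 with an adjusted p of 0.069, so that the call was lost. Same-numbered rats correlated at -0.26 to 0.05 in their deviations from group means. These few values gave no sign of pairing by number but are too few to settle it.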
